A study of Mus musculus with 29 samples.

Results

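The Bcl2 family was followed at the RNA level in neuroblastomas and bone marrow of TH-MYCN mice, which were either wild type or deficient for caspase-8. Its members were 10 named genes, and a gene was measured through the probe sets (groups of short probes to 1 transcript) that the platform annotation gave to its symbol alone. Under that rule 9 of the 10 genes had a probe set, with 29 probe sets between them, out of 18193 genes and 45037 probe sets. The 9 genes were Bcl2, Bcl2l1, Mcl1, Bak1, Bid, Bcl2l11, Bbc3, Pmaip1 and Bad. The tenth, Bax, was not analysed here. Where a gene had several probe sets, the one of highest mean signal stood for it, and the other probe sets are described where they differed from it.

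All 29 samples carried the TH-MYCN transgene on the strain 129X1/SvJ, and in this model the tyrosine hydroxylase promoter drives MYCN in the sympathoadrenal lineage, from which neuroblastoma arises. Primary abdominal tumours came from 7 samples wild type for caspase-8 and 17 deficient for it, and total bone marrow from 2 wild type and 3 deficient samples. Marrow is a whole tissue of many blood cell types, also labelled TH-MYCN, and the sources used here give neither the age of the animals nor the cells that had lost caspase-8. Since the labels do not state separate animals, the p-values rest on sample-to-sample spread, which may be technical.

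Values are log2 signals, so 1 unit is a factor of 2, and a gene was called changed when its limma p, adjusted over all 18193 genes with the Benjamini-Hochberg method, was under 0.05. Array correlations over all 45037 probe sets were 0.972 to 0.993 within groups and 0.805 to 0.865 between tumours and marrow. Markers fitted the labelled tissues, with a mean log2 signal over 9 sympathoadrenal genes of 9.72 ± 0.25 in tumours (SD, n = 24) and 4.33 ± 0.084 in marrow (n = 5), and over 8 granulocyte genes of 4.32 ± 0.41 and 12.5 ± 0.14. The signal of Casp8 itself was 5.88 ± 0.57 in wild type tumours (n = 7) and 5.62 ± 0.44 in deficient tumours (n = 17), a difference of -0.26 (SE 0.20). In marrow it was 9.46 ± 0.23 in wild type (n = 2) and 9.14 ± 0.12 in deficient samples (n = 3). The sources used here do not place the Casp8 probe sets inside or outside the deleted part, so these signals do not check the labels. Wild type tumour 1 stood apart, with the highest leukocyte mean of the tumours (9.83, range of all tumours 6.74 to 9.83) and the lowest sympathoadrenal mean (9.02), and the results that it moved most are given with and without it.

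The proteins of this family decide whether the outer mitochondrial membrane stays closed or lets cytochrome c escape and start the caspase cascade. BCL2, BCL-XL (from Bcl2l1) and MCL1 keep the membrane closed, BAX and BAK (from Bak1) form the pores, and the BH3-only proteins BID, BIM (from Bcl2l11), PUMA (from Bbc3), NOXA (from Pmaip1) and BAD respond to stress and tip the balance towards the pores. Caspase-8 reaches this pathway through BID, which it cuts to release an active fragment. MYC proteins are known to sensitise cells to this route of death, and neuroblastomas and blood cells are both known to rely on its pro-survival members. Much of the regulation acts on protein binding and stability, which RNA signals do not show.

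The start sites of the members differed in base composition. The search covered 14 RefSeq start sites of 8 of the 9 genes on GRCm38.p6, and Pmaip1 was not searched. The 250 bases before each site were read on both strands, overlaps included, for 4 motifs: the E-box CACGTG bound by MYC proteins, the erythroid GATA motif AGATAA, the ETS motif CCGGAAGT and the GC box GGGCGG. A GC box was found in 9 of the 14 windows, against 32.7% of 32851 windows of that length. By gene, 6 of the 8 had one in at least 1 window, and the share over all genes is not given. The genes without one were Bcl2l1 and Bak1, and they are printed because they had the 2 largest tissue differences among the genes searched, with Bcl2 beside them as a pro-survival member with GC boxes. In each line the bases read 5′ to 3′ along the gene's strand and end next to the start site, and capitals mark motif matches.
Bcl2l1, chr2:152828490-152828739, minus strand: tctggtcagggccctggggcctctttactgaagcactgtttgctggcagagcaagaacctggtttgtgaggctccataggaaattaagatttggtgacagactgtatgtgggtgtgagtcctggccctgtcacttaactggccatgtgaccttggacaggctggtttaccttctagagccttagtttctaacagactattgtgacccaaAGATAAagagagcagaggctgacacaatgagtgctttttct
Bak1, chr17:27028628-27028877, minus strand: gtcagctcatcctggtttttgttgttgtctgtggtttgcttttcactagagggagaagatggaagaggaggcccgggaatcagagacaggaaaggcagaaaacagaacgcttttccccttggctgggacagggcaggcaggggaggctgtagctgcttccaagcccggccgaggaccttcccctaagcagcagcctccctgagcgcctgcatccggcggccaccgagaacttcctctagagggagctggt
Bcl2, chr1:106714291-106714540, minus strand: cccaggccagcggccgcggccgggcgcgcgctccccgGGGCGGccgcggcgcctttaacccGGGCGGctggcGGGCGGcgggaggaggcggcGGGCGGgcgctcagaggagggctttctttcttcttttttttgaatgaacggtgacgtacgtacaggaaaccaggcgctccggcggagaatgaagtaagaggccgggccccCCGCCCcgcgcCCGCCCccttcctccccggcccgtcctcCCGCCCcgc
The Bcl2l1 window held 1 AGATAA, which starts at position -41 from the start site, and 9.99% of all windows held one. It was the only one of the 14 member windows with that motif, and the other windows of Bcl2l1 held none of the 4 motifs. The Bak1 window held none of the 4 motifs at 58.4% G and C, and the Bcl2 window held 7 GC boxes at 74.8%. The E-box was in 1 of the 14 windows, a start site of Bbc3, against 6.02% of all windows, and CCGGAAGT was in 0, against 2.88%. A match describes letters in these windows and was not tested as a binding site.

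The first comparison asked how the family differs between tumour and marrow. Of the 9 members, 6 were lower in tumours than in marrow, 0 were higher and 3 were not called. Pmaip1, Bcl2l1 and Bak1 had signals 5.03 to 7.01 times as high in marrow, Mcl1 2.78 times and Bcl2 1.53 times. The BH3-only genes Bcl2l11, Bbc3 and Bad did not pass the test. Differences between these tissues were the rule: over all genes 76.4% were called, 34.2% higher and 42.2% lower in tumours, so the share of members called is read against a background in which most genes differ. The median difference, tumours minus marrow on the log2 scale and averaged over the genotypes, was -0.62 over the members and -0.10 over all genes. In these bulk samples, fewer cells of a type and less RNA per cell cannot be told apart.

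**Figure D1:**
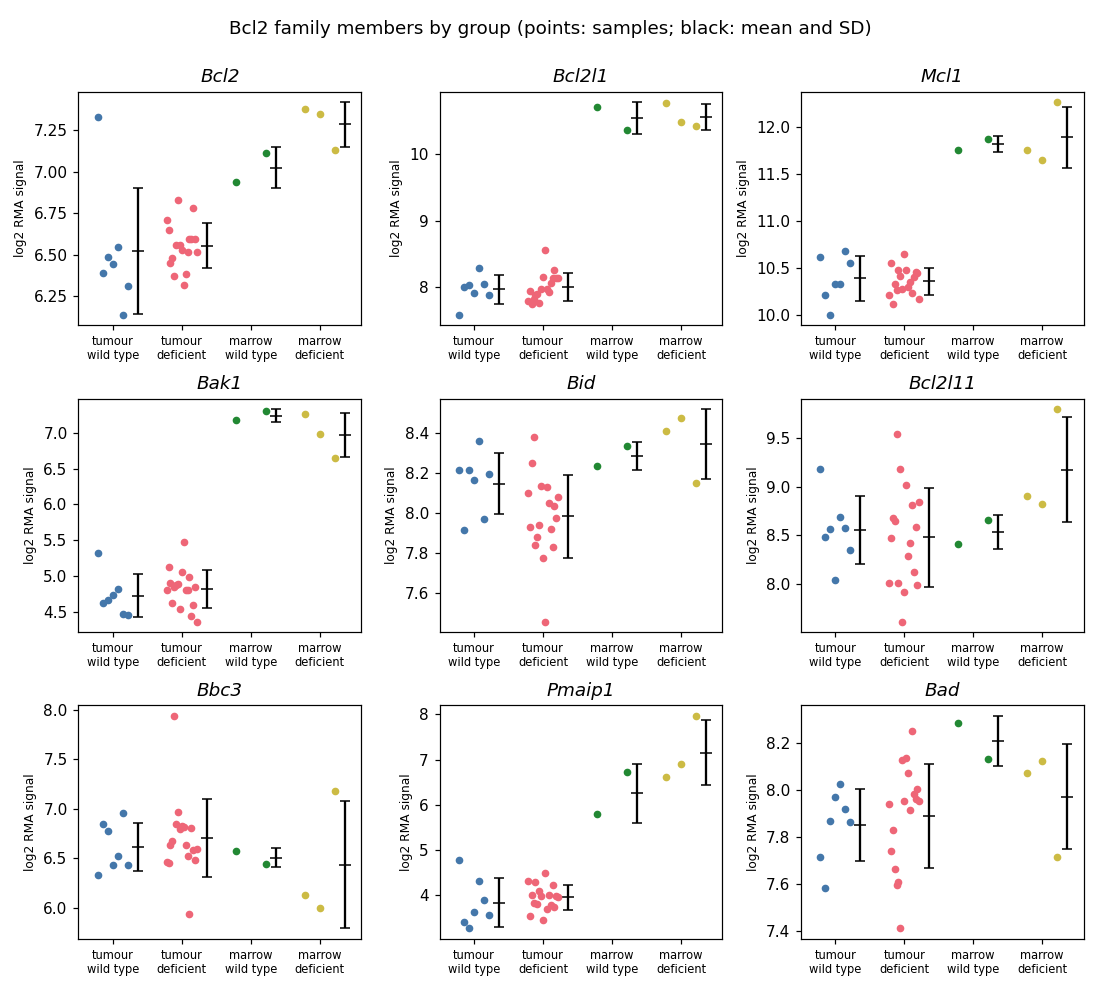
Log2 signal of each of the 9 measured members (vertical axes, 1 panel per gene, scales differ and do not start at 0) in every sample of the 4 groups, with the group mean and SD in black. All 5 marrow samples lie above all 24 tumours for Bcl2l1, Mcl1, Bak1 and Pmaip1, and the genotypes overlap in the tumours for every member.

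Among the pro-survival genes, Bcl2l1, whose product is known to keep maturing red cells and platelets alive, showed the clearest separation. Wild type marrow had log2 signals of 10.71 and 10.37, and deficient marrow of 10.77, 10.48 and 10.42. In wild type tumours the lowest, median and highest signals were 7.59, 8.01 and 8.28, and in deficient tumours 7.74, 7.97 and 8.57. Every marrow sample was above every tumour, by a wide gap in which no sample lay. The difference was -2.56 (SE 0.11, 95% interval -2.78 to -2.34), 5.90-fold lower in tumours, with an adjusted p of 3.6e-19 from limma. An exact permutation test over the 118755 ways to choose 5 of 29 samples gave p = 8.4e-06, the smallest it can give.

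Mcl1, a short-lived pro-survival protein that blood stem cells and granulocytes are known to need, came next. In marrow the wild type samples had signals of 11.76 and 11.87 and the deficient samples 11.76, 11.65 and 12.26. In tumours it spanned 10.01 to 10.68 in wild type (median 10.33) and 10.12 to 10.65 in deficient samples (median 10.35). The lowest marrow sample again lay above the highest tumour, and deficient marrow 3 was the highest sample of all. The difference was -1.48 (SE 0.097), 2.78-fold, with a limma adjusted p of 2.4e-14.

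Bcl2, the founding member and a pro-survival gene of neuroblastoma and lymphoid cells, differed less. Marrow signals were 6.94 and 7.11 in wild type and 7.38, 7.34 and 7.13 in deficient samples. Wild type tumours ranged from 6.14 to 7.33 with a median of 6.45, and deficient tumours from 6.32 to 6.83 with a median of 6.56. The tissues overlapped through wild type tumour 1 alone (7.33), since the next highest tumour had 6.83 and the lowest marrow sample 6.94. The difference was -0.62 (SE 0.11, limma adjusted p = 1.3e-05), and -0.68 without wild type tumour 1.

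The pore-forming gene Bak1 was 5.03-fold lower in tumours. Signals in marrow were 7.18 and 7.31 for the wild type and 7.27, 6.98 and 6.66 for the deficient samples. Tumours ranged from 4.45 to 5.32 in wild type (median 4.67) and from 4.36 to 5.47 in deficient samples (median 4.84). No tumour reached the lowest marrow sample. The log2 difference was -2.33 (SE 0.13, limma adjusted p = 1.2e-15). The tumour mean of Bak1 (4.79) lay near the array medians (4.78 to 4.91), towards the low end of the scale, which RMA compresses.

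Of the BH3-only genes, Pmaip1, whose product NOXA binds MCL1 in particular, had the largest difference of the 9 members. Wild type marrow had signals of 5.79 and 6.72, and deficient marrow 6.61, 6.90 and 7.96. Tumours ranged from 3.27 to 4.79 in wild type (median 3.64) and from 3.46 to 4.50 in deficient samples (median 3.99). The groups did not overlap, although marrow itself spanned more than a factor of 4. The difference was -2.81 (SE 0.20, 95% interval -3.23 to -2.39), 7.01-fold, with a limma adjusted p of 2.6e-13. Its tumour signals lie low on a scale that RMA compresses at the low end, and no detection calls were used here.

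Bid, the substrate that links caspase-8 to the mitochondria, was near the threshold. Marrow signals were 8.23 and 8.33 in wild type and 8.41, 8.47 and 8.15 in deficient samples, within or just above the span of the tumours (7.46 to 8.38). The difference was -0.25 (SE 0.097, limma adjusted p = 0.021). The call was lost without wild type marrow 2 (adjusted p = 0.091), without deficient marrow 2 (0.063), with array weights (0.057) and in the wild type samples alone (-0.14, 0.45), again by limma.

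The remaining 3 members overlapped between tissues. Bcl2l11 had signals of 8.41 and 8.65 for the wild type marrow samples, 8.90, 8.82 and 9.80 for the deficient ones and 7.61 to 9.54 for tumours, with a difference of -0.34 (SE 0.23, limma adjusted p = 0.17). Bad, which binds BCL2 and BCL-XL until survival signalling holds it in the cytosol, had signals of 7.71 to 8.28 in marrow and 7.41 to 8.25 in tumours, a difference of -0.22 (SE 0.10, limma adjusted p = 0.055). Bbc3, a direct target of p53, had signals of 6.0 to 7.18 in marrow and 5.94 to 7.93 in tumours, a difference of 0.19 (SE 0.19, limma adjusted p = 0.36). Centring each array on its median shifted the median of all genes from -0.10 to -0.39 and turned Bbc3 to -0.10, while Bcl2l11 (-0.63) and Bad (-0.51) then passed the test. That setting also changed the share of calls that were higher in tumours from 44.7% to 30.8%.

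All marrow samples exceeded all tumours for 4 of the 9 members (Bcl2l1, Mcl1, Bak1 and Pmaip1), and 16.9% of all genes had that pattern. The same 4 were called lower by a factor of at least 2, against 12.6% of all genes. Each gave the smallest exact permutation p available (8.4e-06), while Bcl2 gave 6.7e-05, Bid 0.0059, Bad 0.071, Bcl2l11 0.083 and Bbc3 0.24.

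All probe sets of the 6 called members gave the same direction as the one standing for the gene. Of 29 member probe sets, 22 were called lower in tumours and 0 higher, and 40.8% of all 45037 probe sets were called lower. All 5 probe sets of Bcl2, all 6 of Mcl1 and all 3 of Bid were called lower, with differences of -1.13 to -0.62, -1.76 to -0.64 and -0.67 to -0.25. For Bcl2l1 all 4 were called lower, but 3 had means under 5 in both tissues and differences of only -1.17 to -0.75. The second Bak1 probe set also had means under 5 in both tissues, and its difference was -0.23 against -2.33, so the size for Bak1 rests on 1 probe set. The sizes for Pmaip1 and Bbc3 likewise rest on their only probe set. For Bcl2l11, 1 of 5 was called lower (-1.24), and neither of the 2 for Bad was called.

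**Figure D2:**
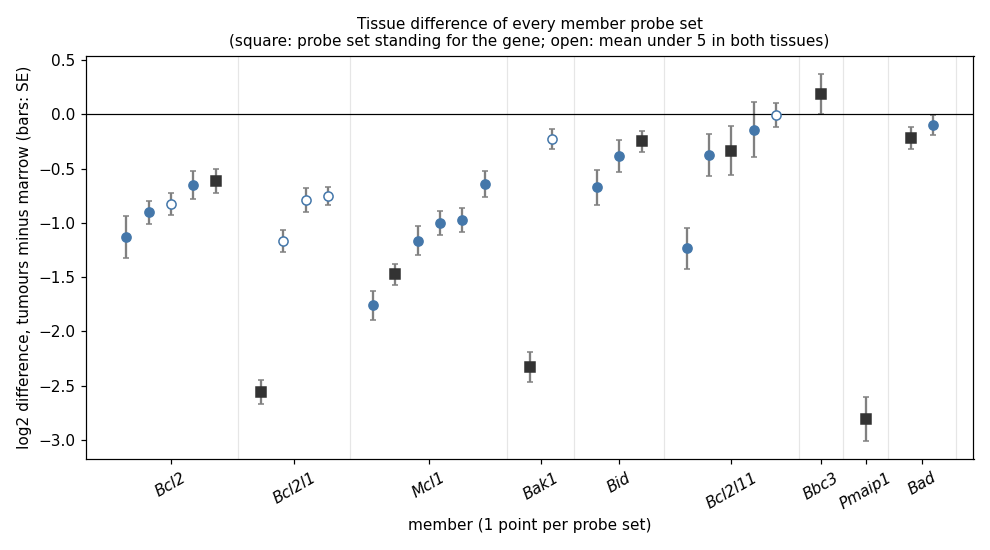
Log2 difference, tumours minus marrow (vertical axis), for each of the 29 member probe sets grouped by gene (horizontal axis), with SE bars, squares for the probe set that stands for the gene and open points for means under 5 in both tissues. Points of Mcl1 and Bcl2 all lie below 0, while the squares of Bcl2l1 and Bak1 lie far below their open points, of which that of Bak1 is near 0.

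The marrow list means that went with this pattern were large. Over 12 leukocyte genes the mean log2 signal was 7.69 ± 0.64 in tumours (n = 24) and 10.75 ± 0.12 in marrow (n = 5), and over 6 erythroid genes 5.04 ± 0.47 and 10.1 ± 0.13. The mean of 7 cell cycle genes was 10.36 ± 0.14 in tumours and 10.5 ± 0.19 in marrow. The part of these cell types in the tissue differences of the members was not tested.

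Other genes of the same pathway were called in both directions, as were genes at large (34.2% of all genes higher and 42.2% lower in tumours). Of 10 further Bcl2 family genes measured, 5 were higher in tumours and 3 lower, with a median difference of 0.27. The largest were the BH3-only gene Hrk, known from neurons, at 2.84 (SE 0.12), the pore-forming relative Bok at 2.54 (SE 0.14), Bcl2l15 at -2.17 (SE 0.13) and the pro-survival gene Bcl2l2, which encodes BCL-W, at 1.90 (SE 0.11). Bcl2l2 thus ran opposite to the pro-survival members Bcl2, Bcl2l1 and Mcl1. Its mean signal was 8.42 in tumours and 6.54 in marrow. Of 10 genes that act at or after cytochrome c release, 5 were higher and 4 lower, led by Apaf1, the scaffold of the apoptosome (-1.21), Diablo, an antagonist of caspase inhibitors (1.05), Casp9 (-1.03) and the mitochondrial channel gene Vdac1 (0.92). Of 10 regulators, 5 were higher and 5 lower, led by Myc (-4.09), Casp8 (-3.55), Foxo3, a known activator of Bcl2l11 (-2.05), and Fbxw7, a ubiquitin ligase for MCL1 (1.28). Mouse Mycn was 0.74 higher in tumours (SE 0.12), and the human transgene was not analysed here.

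The comparison named by the study's labels, caspase-8 deficient against wild type tumours, gave 0 members called among 9, and 0 of all 18193 genes (0%) were called by limma. At an unadjusted p under 0.05 there were 583 genes and still 0 members. Every member's difference lay between -0.16 and 0.12 on the log2 scale, with adjusted p-values of 0.9997 throughout, and a p that misses the threshold does not show that the genotypes have equal levels. Over every probe set, 0 of 29 member probe sets were called, against 0.00222% of all.

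For the pro-survival genes, through the probe sets standing for them, the 95% intervals lay between -0.19 and 0.24. Deficient minus wild type was 0.03 for Bcl2 (95% interval -0.17 to 0.24), 0.04 for Bcl2l1 (-0.15 to 0.24) and -0.03 for Mcl1 (-0.19 to 0.13). Wild type tumours had a mean Bcl2 signal of 6.52 ± 0.38 (SD, n = 7) and deficient tumours 6.55 ± 0.14 (n = 17). The wider spread of the wild type group came with wild type tumour 1, and without it the Bcl2 difference was 0.17. Bcl2l1 had means of 7.97 ± 0.21 and 8.01 ± 0.21, and Mcl1 of 10.39 ± 0.24 and 10.36 ± 0.14. Bak1 had 4.73 ± 0.30 and 4.82 ± 0.27, a difference of 0.10 (-0.15 to 0.34), which was 0.20 without wild type tumour 1 and 0.049 without wild type tumour 7.

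Bid had the smallest p of the 9 members. Its signal in wild type tumours was 7.91 at the lowest, 8.19 at the median and 8.36 at the highest, and in deficient tumours 7.46, 7.97 and 8.38. The deficient tumours reached lower, with 1 far below the rest (deficient tumour 10, 7.46), and the groups overlapped over most of their range. Means were 8.15 ± 0.15 (n = 7) and 7.98 ± 0.21 (n = 17), a difference of -0.16 (SE 0.087, 95% interval -0.34 to 0.01). The unadjusted limma p was 0.071, and an exact permutation test over 346104 splits gave 0.074. The other 2 probe sets of Bid had differences of 0.00 and -0.13. Bid signals went with the 3′ minus 5′ control signal of the arrays, an array quality measure, at r = -0.49 over 24 tumours (permutation p = 0.017, adjusted over 54 relations 0.13). It was r = -0.41 in the lower and -0.53 in the higher series. Without the 2 tumours farthest from the median of that signal it was r = -0.34 (permutation p = 0.12). Wild type tumours had 0.616 ± 0.145 on that measure and deficient tumours 0.761 ± 0.175. With that measure as a covariate the Bid difference was -0.095 (limma adjusted p = 0.999). The part of RNA quality in the Bid difference was not tested.

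The other BH3-only genes had wider intervals. Deficient minus wild type was -0.08 for Bcl2l11 (95% interval -0.49 to 0.33), 0.09 for Bbc3 (-0.22 to 0.41), 0.12 for Pmaip1 (-0.20 to 0.44) and 0.04 for Bad (-0.15 to 0.23). Leaving out 1 tumour moved Pmaip1 to between 0.025 (without wild type tumour 3) and 0.28 (without wild type tumour 1), and for Bbc3 the same procedure gave 0.015 to 0.15, the lower end when deficient tumour 5 was left out. Of the further family genes 0 of 10 were called, the smallest p being that of Bok (0.22, unadjusted limma p = 0.041) and next Bcl2l10 (0.13, 0.12). Of the release genes 0 of 10 were called, with Diablo (0.15, 0.032) and Cycs, which encodes cytochrome c (0.12, 0.12), lowest. Of the regulators 0 of 10 were called, with E2f1 (0.16, 0.048) and Huwe1, a ubiquitin ligase for MCL1 (0.13, 0.091), lowest.

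In marrow, deficient against wild type, 0 of 9 members were called and 4 of all genes (0.022%). Those 4 were the X-linked gene Xist, higher in the deficient samples by 6.24, and Eif2s3y, Kdm5d and Uty. The latter are Y-linked and had differences of -6.65, -3.74 and -2.91. All 3 deficient samples differed from both wild type samples in these genes, which is the pattern of female against male samples. Genotype and sex therefore cannot be told apart in marrow, for the members as for these genes. The same limit holds for the marrow part of the interaction given below. Over every probe set 0 of 29 member probe sets were called, against 0.02% of all. At an unadjusted p under 0.05 there were 737 genes and 0 members by limma, and with 5 samples the smallest permutation p would be 0.1.

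The 2 largest marrow differences were in the BH3-only genes Pmaip1 and Bcl2l11. Pmaip1 was 0.90 higher in deficient marrow (SE 0.43, 95% interval -0.09 to 1.89, unadjusted limma p = 0.069), although 1 of the 3 deficient samples (6.61) lay below 1 of the 2 wild type samples (6.72). Bcl2l11 was 0.64 higher (SE 0.31, 95% interval -0.07 to 1.35, unadjusted limma p = 0.071), with all 3 deficient samples above both wild type samples. Both values lean on deficient marrow 3, which had the highest signal of the 5 for Mcl1, Bcl2l11, Bbc3 and Pmaip1 and the lowest for Bak1, Bid and Bad. Without it Bcl2l11 differed by 0.33 and Pmaip1 by 0.50, and Pmaip1 differed by 0.44 without wild type marrow 1 and by 1.36 without wild type marrow 2. The other members differed by -0.27 to 0.26, the ends being Bak1 (SE 0.22) and Bcl2 (SE 0.18). Deficient marrow 3 also stood at the end of the marrow samples for most marker lists. It had the lowest mean of 7 B cell genes (5.34, against 5.59 to 7.92 in the other samples). It was likewise lowest for the stroma (5.58), endothelium (5.30), cell cycle (10.21) and erythroid (9.89) lists and for the 3′ minus 5′ control signal (0.396), and highest for leukocytes (10.85). The part of cell content or RNA quality in these values was not tested. Of the further family genes, release genes and regulators, 0 of 10 in each list were called, and Bcl2l14 had the smallest p (-0.66, unadjusted limma p = 0.0092).

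Whether the genotype difference itself differed between tissues was tested as an interaction in the fit of all 29 samples. It was called for 58 genes (0.319%) and for 0 of the 9 members. The interaction, tumour difference minus marrow difference, was -0.78 for Pmaip1 (SE 0.41, unadjusted limma p = 0.066) and -0.72 for Bcl2l11 (SE 0.45), and without deficient marrow 3 these were -0.38 and -0.40. For the other members it lay between -0.23 and 0.37, and without deficient marrow 3 the interaction of Bbc3 went from 0.16 to 0.53. The interaction of genotype with the number series of the tumour titles, described next, was called for 0 of all genes (0%), with 933 at an unadjusted limma p under 0.05, and for 0 members.

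The tumour titles carry numbers in 2 ranges, one under 100 (3 wild type and 7 deficient tumours) and one from 100 (4 wild type and 10 deficient tumours, and all 5 marrow samples). The sources used here do not say what the numbers stand for. This comparison was added after the values were seen. With genotype in the model, 7.9% of genes were called between the series, 4.39% higher and 3.52% lower in the higher series. Of the calls 55.5% were higher, and 75.2% with arrays centred on their median. The members called were Bad and Bcl2l1, both higher, 2 of 9.

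Bad had signals of 7.41 to 7.94 in the lower series (mean 7.69 ± 0.16, SD, n = 10) and 7.86 to 8.25 in the higher series (8.01 ± 0.10, n = 14). The series overlapped only between 7.86 and 7.94. The difference was 0.31 (SE 0.057, limma adjusted p = 9.1e-04). Marrow, all of it in the higher series, had a mean Bad signal of 8.07 ± 0.21 (n = 5), near that of the higher series tumours. The lower series entered the tissue difference of Bad (-0.22) through tumours only. Bcl2l1 had 7.59 to 8.03 in the lower series (7.85 ± 0.14) and 7.88 to 8.57 in the higher (8.10 ± 0.18), a difference of 0.26 (SE 0.070, limma adjusted p = 0.023). In the 7 wild type tumours alone the differences were 0.22 and 0.16 and were not called, with only 2 genes called in all.

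**Figure D3:**
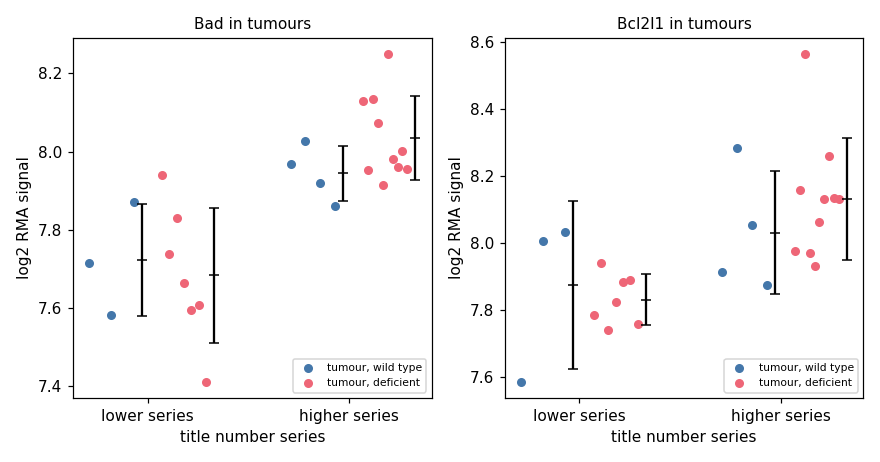
Log2 signal (vertical axis) of Bad, left, and Bcl2l1, right, in single tumours of the lower and higher title number series, coloured by caspase-8 genotype, with mean and SD of each subgroup in black. Bad runs from 7.41 to 7.94 in the lower and from 7.86 to 8.25 in the higher series, over both genotypes together.

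Other probe sets of the same genes did not all follow. The second Bad probe set differed by 0.07 (limma adjusted p = 0.44 over all probe sets) and the other 3 of Bcl2l1 by 0.03 to 0.14, none called. In turn, 1 further probe set of Bid (0.40, adjusted p = 0.016) and 1 of Bcl2l11 (0.50, adjusted p = 0.0068) were called higher by limma, while the probe sets standing for those genes differed by -0.06 and -0.30. In all, 4 of 29 member probe sets were called higher and 0 lower, against 6.41% of all probe sets called higher. Correlations across tumours are therefore also given within each series for the relations named, and for the genes of most alike pattern where a series falls below r = 0.6. Of the pathway lists, Hrk (0.28) and Vdac3 (0.10) were called higher in the higher series, and Vdac1 (-0.20) and Usp9x, a deubiquitinase of MCL1 (-0.21), lower.

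Across single tumours the BH3-only genes Bcl2l11, Pmaip1 and Bbc3 varied most. Their SDs over 24 tumours were 0.461, 0.364 and 0.353 on the log2 scale, against a median of 0.194 over all genes, and the SD of Bcl2l11 was larger than that of 91.6% of all genes and of 96.2% of the 1000 genes of nearest mean level. Bak1 had an SD of 0.273, and Bcl2, Bcl2l1, Bid and Bad had SDs from 0.202 to 0.226. Mcl1 varied least (SD 0.172, range 0.67). The place of Bbc3 rests on deficient tumour 5, without which its SD was 0.235 and that of Bak1 0.279. Of the 1000 genes of nearest mean level, 87.6% had a smaller SD than Pmaip1 and 73.5% a smaller SD than Bbc3. The values are described without a test.

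The 18 highest and lowest values of the 9 members fell in 10 of the 24 tumours. Deficient tumour 5 had the highest Bbc3 (7.93, where the next was 6.97) and the highest Bcl2l11 (9.54). Deficient tumour 13 had the lowest Bbc3 (5.94) and the highest Bad (8.25). Deficient tumour 10 had the highest Bcl2l1 (8.57) and Bak1 (5.47) and the lowest Bid (7.46). It also ranked first of 24 for the endothelial and erythroid lists and second for the 3′ minus 5′ control signal. Wild type tumour 1 had the highest Bcl2 (7.33) and Pmaip1 (4.79) and the lowest Bcl2l1 (7.59). Wild type tumour 6 had the lowest Bcl2 (6.14) and the highest Mcl1 (10.68). Deficient tumours 4, 7 and 17 had the highest Bid, the lowest Bad and the lowest Bak1. Deficient tumour 8 had the lowest Bcl2l11 (7.61), and wild type tumour 3 the lowest Mcl1 (10.01) and Pmaip1 (3.27).

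**Figure D4:**
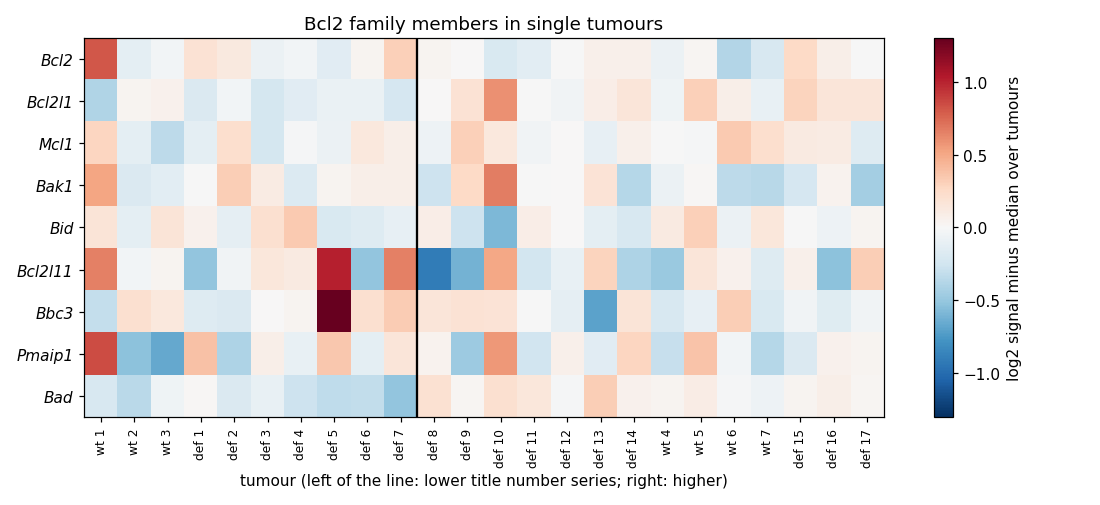
Deviation of each member's log2 signal from its median over the 24 tumours (colour, red above and blue below), with tumours as columns (wt, wild type; def, caspase-8 deficient) and the vertical line parting the lower from the higher title number series. The darkest cells are Bbc3 and Bcl2l11 in deficient tumour 5, Bcl2l11 in deficient tumour 8 and Bcl2 and Pmaip1 in wild type tumour 1.

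The members did not move as one across tumours. Of 36 pairs, 0 had a Pearson correlation with an adjusted permutation p under 0.05, with r from -0.50 to 0.57, and 4 had an unadjusted p under 0.05. The pair of highest r was Bcl2l1 with Bad (r = 0.57, permutation p = 0.0038, adjusted 0.14; rho = 0.67, p = 5.8e-04, adjusted 0.021). Within the series it did not hold, with r = 0.01 (n = 10, permutation p = 0.97) and r = 0.31 (n = 14, permutation p = 0.28). Both genes were the ones called between the series. Bcl2l1 with Pmaip1 had r = -0.90 in the lower series (n = 10, permutation p = 8.1e-04, adjusted 0.029) and r = 0.65 in the higher (n = 14, permutation p = 0.012, adjusted 0.32), and r = 0.20 over all tumours without wild type tumour 1. Bcl2l1 with Bid had r = -0.50 over all 24 (permutation p = 0.014, adjusted 0.23), -0.36 in the lower and -0.60 in the higher series. It was -0.15 without the 2 tumours farthest from the median of Bcl2l1.

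Members were also set against the means of 5 marker lists and the 3′ minus 5′ control signal, 54 relations in all, and 2 passed after adjustment. Pmaip1 rose with the leukocyte mean at r = 0.67 (n = 24, permutation p = 2.5e-04, adjusted 0.014; rho = 0.57, p = 0.0042, adjusted 0.22). It was r = 0.63 in the lower and 0.75 in the higher series, and 0.52 without wild type tumour 1. Without the 2 tumours farthest from the median of the leukocyte mean it was 0.46. Bcl2 fell with the sympathoadrenal mean at r = -0.70 (permutation p = 5.1e-04, adjusted 0.014; rho = -0.47, p = 0.021, adjusted 0.22). It was r = -0.95 in the lower and -0.39 in the higher series, and -0.48 without wild type tumour 1. Without the 2 tumours farthest from the median of the sympathoadrenal mean it was -0.31. Without wild type tumour 1, 0 of the 54 relations passed, so both rest in part on that tumour. Bcl2 with the leukocyte mean had r = 0.64 (permutation p = 0.0060, adjusted 0.11), with r = 0.89 in the lower and 0.24 in the higher series. Without wild type tumour 1 it was 0.24 (permutation p = 0.27), so it rests on that tumour.

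**Figure D5:**
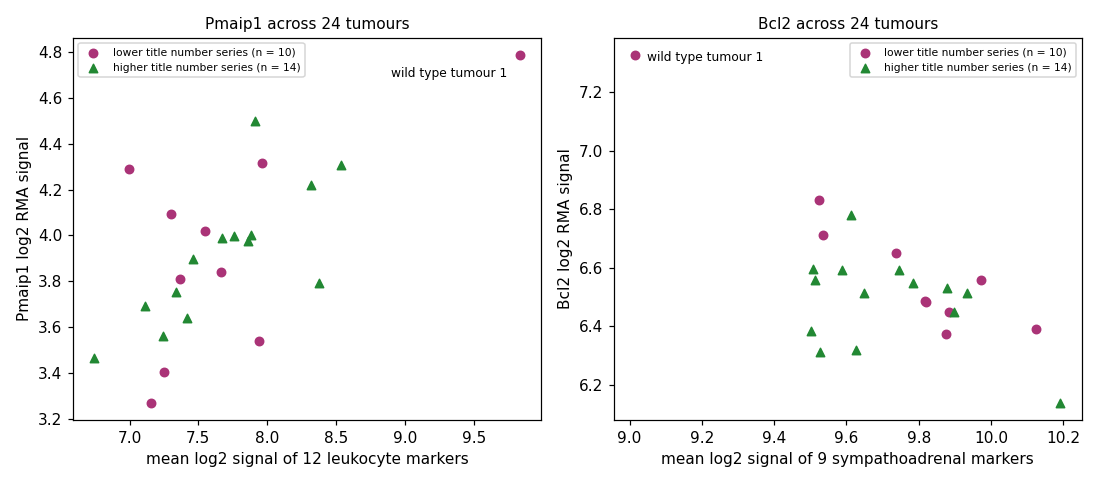
Single tumours (n = 24) by title number series, with Pmaip1 log2 signal against the mean log2 signal of 12 leukocyte markers, left, and Bcl2 against the mean of 9 sympathoadrenal markers, right. Wild type tumour 1 lies at the corner of both panels, and the pooled r is 0.67 on the left and -0.70 on the right.

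The genes whose pattern over the 24 tumours was most like a member's are given as a description. For Pmaip1 they were the blood cell genes Plek (r = 0.86 over all tumours, 0.88 in the lower series, 0.86 in the higher) and Fermt3 (r = 0.79). For Bcl2l11 they were Pla2g2d (r = 0.87) and Ndn (r = 0.78), and for Bad Orai1 and Sema3f (both r = 0.89). For Bcl2 they were Dcxr and Swap70 (both r = 0.79), though in the higher series these had r = 0.60 and 0.38. The remaining members had their closest genes at r of 0.78 to 0.83, which were Slc6a18 and Wdr45b for Bcl2l1 (0.56 and 0.51 in the lower series), E130311K13Rik and Tmem30a for Mcl1, Fam241a and Sh3glb1 for Bak1, Desi2 and Sdad1 for Bid, and Efna3 and Gigyf1 for Bbc3. Probe sets of a member tracked each other unevenly over the tumours, with r to the one standing for the gene of 0.39 to 0.71 for Mcl1, 0.31 to 0.95 for Bcl2l11, 0.09 to 0.75 for Bid, -0.11 to 0.40 for Bcl2 and -0.09 to 0.43 for Bcl2l1, and of -0.09 for Bak1 and 0.36 for Bad. Statements on single tumours therefore hold for the probe set named as standing for the gene.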

How the data were processed

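The 24 tumours and 5 marrow samples were each profiled on 1 mouse array that reads transcripts near their 3′ end. Trizol RNA and two-cycle biotinylated cRNA from 100 ng are what the labels' protocols state. The deposited values are log2 signals that the authors computed by RMA with Partek 6.6 (per the submitters' processing notes). The sources used here do not say whether all arrays were normalized in 1 run. Arrays have no read depth, and their number limits the precision.

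Of 45101 probe sets, 64 array controls were left out. The platform annotation gave 34945 a single symbol, 932 several and 9160 none, and 34754 were matched to a RefSeq gene table by Entrez ID. The probe set of highest mean stood for each of 18193 genes. No values were filtered.

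Tissue and genotype labels set the groups, and replicate numbers follow accession order and pair nothing. limma 3.58.1 (lmFit, eBayes) in R 4.3.3 was fitted over all genes, two-sided, with Benjamini-Hochberg adjustment. Genotype was fitted within tumours and within marrow, and tissue and its interaction with genotype over all 4 groups. Title number series and its interaction with genotype were fitted within the 24 tumours. Correlations had 100000 permutations, two-sided, and the adjustment covered each family of relations. The fits were tested on simulated data.

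All measured members were named in each comparison. Of the other 3 pathway lists, the 4 genes of largest difference among those called, or the 2 of smallest p, were named, with Bcl2l2, Mycn and Bcl2l14 added where the rule did not name them, after their values were seen. The members and lists were chosen with earlier results of these data known. Alternatives, whose effects are given at the end, used the mean of probe sets or every probe set, a mean filter of 5, centred arrays, array weights, another variance prior, covariates or fewer samples. The comparison of title number series, the spread without single tumours and the fits without wild type tumour 1 or without deficient marrow 3 in the interaction were added after the data were seen.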

Additional observations from a re-analysis of the deposited data

Results flagged for a closer look

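In the 7 wild type tumours, 1 sample lay far from the others for 2 of the 9 members tested, by Dixon's 95% criterion on the gap to the nearest sample over the whole range. Bcl2 was 7.326 in wild type tumour 1 and 6.139 to 6.548 in the other 6 wild type tumours. Bak1 was 5.324 in the same tumour and 4.449 to 4.823 in the others. The gap over the range was 0.655 for Bcl2 and 0.572 for Bak1, against a critical value of 0.568. Bak1 thus passed only narrowly. Chance marks about 1 in 20 groups at this criterion. Both values belong to the tumour with the highest mean of the leukocyte list (9.83) and the lowest of the sympathoadrenal list (9.02), and the part of cell content in them was not tested.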

How the results depend on the processing

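The 5 members called lower in tumours with the largest differences (Pmaip1, Bcl2l1, Bak1, Mcl1 and Bcl2) kept direction and call under every alternative to the tissue comparison that gave them a value, while Bid lost its call under some and Bcl2l11 and Bad, not called, gained one under some. Pmaip1 dropped out under the mean filter of 5 in the tissue comparison, and Pmaip1 and Bak1 in the tumour comparison. Bcl2l11 turned to 0.021 in wild type samples alone and Bbc3 to -0.10 with centred arrays. The number of genes called between tissues was 9170 under the filter, with fewer genes tested, and 31676 over every probe set, with more features tested. Within tumours 1 of all probe sets was called between genotypes. Within marrow the count of 4 became 2 with the mean of probe sets, 2 under the filter and 9 over every probe set, and stayed at 4 on leaving out any 1 sample. Between title number series 2 genes were called in the wild type tumours alone, with fewer samples.

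No member passed the test between genotypes in either tissue under any alternative (lowest limma adjusted p 0.671 in tumours and 0.478 in marrow), but the sign of some differences turned. In tumours, the lower series alone gave -0.16 for Bcl2, -0.044 for Bcl2l1, 0.059 for Mcl1, -0.0036 for Bak1 and -0.039 for Bad. The mean of probe sets gave -0.014 for Bcl2l1 and -0.0046 for Bad, array weights -0.0024 for Bcl2l1 and 0.035 for Mcl1, and the 3′ minus 5′ control signal as a covariate -0.019 for Bcl2l1 and 0.017 for Mcl1. Leaving out 1 tumour at a time gave -0.030 to 0.17 for Bcl2, -0.019 to 0.097 for Bcl2l1, -0.094 to 0.018 for Mcl1, -0.16 to 0.028 for Bcl2l11 and -0.0034 to 0.071 for Bad. In marrow, centring gave -0.0093 for Bcl2l1, array weights -0.03 for Mcl1 and the mean of probe sets 0.066 for Bak1, and leaving out 1 sample gave -0.15 to 0.19 for Bcl2l1, -0.11 to 0.19 for Mcl1, -0.0043 to 0.16 for Bid and -0.44 to 0.15 for Bbc3. With deficient marrow 3 left out, the interaction of tissue and genotype was -0.046 for Bcl2l1 and 0.080 for Mcl1. The causes were not tested.

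Between title number series, Bad and Bcl2l1 kept their calls on leaving out any 1 tumour and lost them in the wild type tumours alone, with fewer samples. Bid turned to 0.15 with the mean of probe sets and 0.058 in wild type tumours alone, and Pmaip1 to 0.0095 with centred arrays, 0.032 in wild type tumours alone and -0.097 to 0.089 on leaving out 1 tumour. Among pairs of members 1 correlation passed in the lower series, and Bcl2l1 with Pmaip1 turned from -0.05 to 0.20 without wild type tumour 1 and to 0.65 in the higher series. Of the relations to marker lists, by Pearson's r, 0 passed without wild type tumour 1 and 0 in the higher series. Without the 2 tumours farthest from the median of the list mean or control signal, 0 passed. In the lower series 2 passed (Bcl2 with the sympathoadrenal mean, adjusted p = 0.019, and Bcl2l1 with the stroma mean, r = -0.87, adjusted p = 0.022, n = 10, permutation). By Spearman's rho 1 passed in the higher series, Pmaip1 with the leukocyte mean (rho = 0.82, adjusted permutation p = 0.030). No paired analysis was possible because the replicate numbers follow accession order.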

Other observations

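Bcl2 lies on the same chromosome as Casp8, with 284 measured genes between them, and its signal did not pass the test between genotypes in tumours (0.03, SE 0.10) or in marrow (0.26, SE 0.18, both limma).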
